A study of Homo sapiens with 6 samples.

Results

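The genes described here encode the enzymes that build purine and pyrimidine nucleotides, convert them to deoxynucleotides, and supply the one-carbon units for these steps. They were chosen by a list of 34 gene symbols covering the purine, pyrimidine and folate branches, and 32 genes carried one of these symbols among the 18625 genes listed. ADSS2 is the current symbol of the gene listed as ADSS, so these names stand for a single gene, and CTPS2 was not analysed here. The RNA came from NB4 cells, an established human acute promyelocytic leukemia line that carries the PML-RARA fusion, which both groups share. The cells received either the solvent DMSO or 10 μM Tan I (Tanshinone I, a lipid-soluble compound of the herb Salvia miltiorrhiza) for 3 days, and each treatment had 3 RNA-seq libraries. The comparison addressed which transcripts changed when this leukemia line was exposed to Tan I. Nothing in the labels says that the 3 libraries of a group came from separate cultures, so the p-values measure only the spread between these libraries.

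Cells make purines by assembling the ring stepwise on phosphoribosyl pyrophosphate (PRPP), or salvage free bases onto the same sugar. Pyrimidines are built as a ring first and joined to PRPP afterwards, and ribonucleotide reductase then converts ribonucleotides into the deoxynucleotides used for DNA synthesis. Folate carries the one-carbon units, which come mainly from serine, into the purine ring and into thymidylate. Several antileukemic drugs, including methotrexate, mercaptopurine and hydroxyurea, act on these pathways.

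Each library held between 21502760 and 31679138 reads on the listed genes. Values are the deposited normalized counts, which are read counts divided by a size factor for each library. The test was limma on log2(normalized count + 1), run on genes averaging 10 or more, which left 16887 genes and kept all 32 members, whose lowest mean was 132 (ADSL). A gene was called where p was at most 0.05 and the log2 fold change was 0.25 or more in either direction. The first principal component held 70.8% of the variance and did not follow the treatment. DMSO replicate 2 (score 41.11) and Tan I replicate 3 (score 71.61) lay at one end of it, while DMSO replicate 1 (-47.97) and Tan I replicate 1 (-46.75) lay together at the other end. The promyelocyte marker MPO, the myeloperoxidase of the azurophil granule, was abundant in every library, with 60389, 64107 and 63267 normalized counts in DMSO and 33279, 39450 and 37076 in Tan I. MPO was called lower in Tan I (log2 fold change -0.78, adjusted p = 0.999, limma), as was the granule protease gene CTSG (-0.69), while the groups overlapped for PRTN3 (-0.32), AZU1 (-0.25) and CD33 (0.07), which were not called. The 5 promyelocyte markers in the table (MPO, PRTN3, AZU1, CTSG and CD33, while ELANE was not analysed here) summed to 70959 to 76923 in DMSO and 41825 to 50123 in Tan I, and without MPO the other 4 summed to 10570 to 12816 and 8546 to 10826, which overlap. The 6 markers of lymphoid, epithelial, stromal and endothelial cells in the table summed to 893 to 1248 in DMSO and 857 to 1430 in Tan I, with NKG7 the most abundant and none at 0. The part of these marker levels in the results on the nucleotide genes was not tested, and in bulk RNA fewer cells of a type and less RNA per cell cannot be told apart.

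The nucleotide and one-carbon genes moved little with Tan I. Of the 32 genes, 1 (3.12%) was called at the unadjusted threshold, namely RRM2, and it was higher in Tan I. Among all genes tested, 2.42% were called at this threshold in either direction, near the share of the 32 genes, and 1.32% were called higher. No gene of the table passed at an adjusted p of at most 0.05 (0%, limma). An unadjusted p of at most 0.05 was found for 410 of 16887 genes, below the share of 0.05 expected where no gene changes. DESeq2 called 16 genes after adjustment, none of them a nucleotide gene. For RRM2 and CTPS1 (6.25% of the 32 genes) the lowest Tan I library exceeded the highest DMSO library. No gene of the 32 showed the opposite. Over all genes tested, 7.89% had groups that did not overlap, and 3.92% had Tan I above DMSO. The median log2 fold change of the 32 genes was 0.02, against -0.00 for all genes tested, and the values ran from -0.32 (PFAS) to 0.45 (RRM2). Of the 32 genes, 20 lay above 0 (62.5%, against 49.7% of all genes tested) and 12 below. Rescaling each library to the same total changed 8 of these signs. The 95% interval of the log2 fold change lay within -1 to 1 for 31 of the 32 genes and within -0.5 to 0.5 for 19. Of the 16887 genes tested, 12341 and 4843 had such intervals. A change of more than 1 log2 unit therefore lay outside the interval for each of the 32 genes but TK1. The median absolute log2 fold change of the 32 genes (0.09) was smaller than the median log2 range within DMSO (0.34) or within Tan I (0.41). The same order held over all genes tested, with 0.14 against 0.46 and 0.54.

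**Figure D1:**
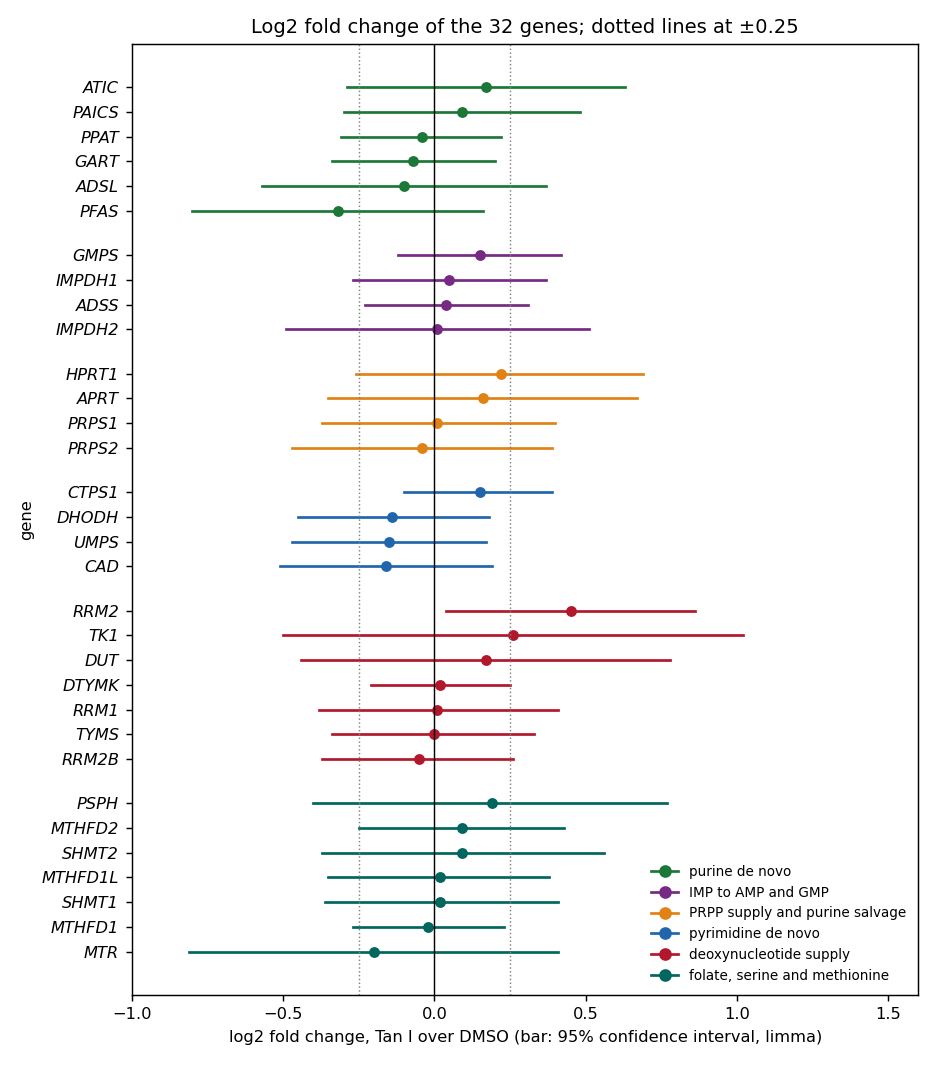
Log2 fold change (x axis, Tan I over DMSO) of each of the 32 genes (y axis, colored by branch), with points for the limma estimate, bars for the 95% confidence interval, and dotted lines at the fold threshold of 0.25. The interval of RRM2 (0.04 to 0.86) lies to the right of 0, and every other interval spans 0.

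Deoxynucleotide supply held the single called gene. RRM2 encodes the small, radical-bearing subunit of ribonucleotide reductase that accompanies DNA replication, and its RNA was higher in Tan I by 1.37-fold. RRM2 had 3619, 4281 and 3830 normalized counts in DMSO and 4552, 4844 and 6871 in Tan I. The groups did not overlap, but Tan I replicate 1 lay close to DMSO replicate 2, and Tan I replicate 3 stood well above the other libraries. The DMSO mean was 3910 ± 338 and the Tan I mean 5422 ± 1263 (SD, n = 3), with a log2 fold change of 0.45 (SE 0.18, 95% interval 0.04 to 0.86). The p of RRM2 before adjustment was 0.0353 and the adjusted p = 0.999 (limma), and the exact two-sided permutation p = 0.1 was the smallest that 3 against 3 libraries allow. The call was lost with all 6 libraries when the variance prior had no trend with expression (p of 0.0607 before adjustment, adjusted p = 0.999, limma), and it was lost when single libraries were left out. Without Tan I replicate 3 the log2 fold change of RRM2 was 0.27, without DMSO replicate 1 it was 0.40, and without DMSO replicate 3 it was 0.44, and in none of these fits was RRM2 called. With scores on the first principal component, which was itself computed from these libraries, added to the model, the log2 fold change was 0.36 (adjusted p = 0.0279, limma). In that fit 194 of the 16887 genes tested were called after adjustment, against 0 without the covariate. At the unadjusted threshold it called 8.86% of all genes, against 2.42% without the covariate.

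RRM2 lies at chr2:10120698-10211725 on the plus strand (GRCh38, GENCODE 44), and its canonical transcript has 10 exons and starts at base 10122739. GENCODE also places transcripts on the opposite strand within it, as for 15 of the 32 genes, and the sources used here do not say whether strand was used in counting. The 250 bases before the RRM2 start site, chr2:10122489-10122738, are shown because RRM2 was the called gene, beside those of CTPS1 (chr1:40979446-40979695, plus strand), the other gene whose groups did not overlap. The sequences are from RefSeq (GRCh38.p14), and capitals mark the CCAAT box (CCAAT on either strand), a promoter element bound by the factor NF-Y.
RRM2: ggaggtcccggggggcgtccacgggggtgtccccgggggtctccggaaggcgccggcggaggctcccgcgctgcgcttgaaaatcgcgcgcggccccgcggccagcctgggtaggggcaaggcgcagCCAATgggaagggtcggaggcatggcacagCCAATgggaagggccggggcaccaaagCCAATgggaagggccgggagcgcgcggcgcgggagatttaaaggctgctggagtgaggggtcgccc
CTPS1: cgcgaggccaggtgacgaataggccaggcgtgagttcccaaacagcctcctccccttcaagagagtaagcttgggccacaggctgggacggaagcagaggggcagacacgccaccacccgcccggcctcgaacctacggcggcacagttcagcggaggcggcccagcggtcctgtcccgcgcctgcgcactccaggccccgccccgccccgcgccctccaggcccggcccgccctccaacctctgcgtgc
The RRM2 stretch held 3 CCAAT boxes, which began 123, 93 and 66 bases before the start site, and the CTPS1 stretch held none. A CCAAT box stood in the windows of 13 of the 27 members with a RefSeq window (48.1%), and in those of 37% of the 27305 genes with windows of the same length. The E-box CACGTG, the site of MYC and related factors, was found for 5 members (18.5%, against 7.73% of genes). These were ATIC, DHODH, MTHFD1, MTHFD1L and PPAT, whose log2 fold changes in Tan I ran in that order 0.17, -0.14, -0.02, 0.02 and -0.04. An E2F-type site (TTTCGCGC or TTTGGCGC) was found for DUT and GART (7.41%, against 1.2% of genes). A TATA box (TATAAA) was found for GART and TK1 (7.41%, against 13% of genes). Each motif was searched on both strands in any window of a gene, the matches printed do not overlap one another, and a match describes the letters only. The 27305 genes were not limited to those tested in these cells, whereas all members were. Whether the members differ from other expressed genes in these motifs was not tested.

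The large, catalytic subunit of the same enzyme, RRM1, had 3731, 4948 and 3895 normalized counts in DMSO and 3799, 3844 and 5077 in Tan I. These groups overlapped widely, and the log2 fold change was 0.01 (95% interval -0.38 to 0.41). The ratio of RRM2 to RRM1 within a library, a measure chosen after the values were seen, was 0.97, 0.865 and 0.983 in DMSO and 1.2, 1.26 and 1.35 in Tan I. Every Tan I library lay above every DMSO library, the spread within each group was small, and the ratio was 1.35-fold higher (log2 difference 0.44). The exact two-sided permutation p was again 0.1. The size of this difference is that of RRM2 (log2 fold change 0.45), since RRM1 stood at 0.01. Leaving out Tan I replicate 3 gave a log2 difference of 0.39 for this ratio, and leaving out DMSO replicate 2 gave 0.38.

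RRM2B encodes the p53-inducible small subunit, which supplies deoxynucleotides for DNA repair and for mitochondrial DNA in resting cells. It had 417, 518 and 430 normalized counts in DMSO and 454, 429 and 428 in Tan I, so the groups overlapped (log2 fold change -0.05, 95% interval -0.37 to 0.26). The ratio of RRM2B to RRM2 was 0.115, 0.121 and 0.112 in DMSO and 0.0996, 0.0886 and 0.0623 in Tan I. All 3 Tan I ratios lay below the DMSO ratios, with a log2 difference of -0.50 that was -0.31 without Tan I replicate 3. This difference mostly restates that of RRM2 (log2 fold change 0.45), since RRM2B itself stood at -0.05. The exact two-sided permutation p was 0.1, and the adjusted p over the 5 isozyme pairs tested was 0.5.

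**Figure D2:**
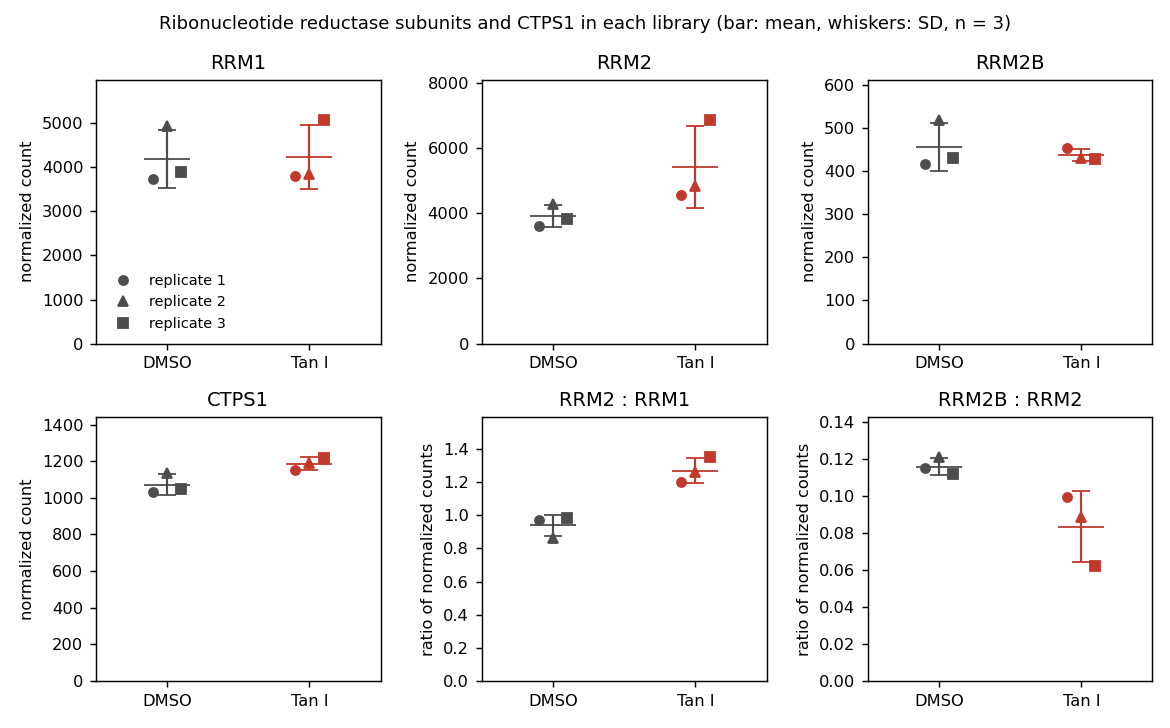
Normalized counts (y axis, first 4 panels) and ratios of normalized counts (last 2 panels) of the ribonucleotide reductase subunits and CTPS1 in DMSO and Tan I, with circles, triangles and squares for replicates 1, 2 and 3, horizontal bars for the mean and whiskers for the SD. The RRM2 to RRM1 ratio is at most 0.983 in DMSO and at least 1.2 in Tan I, while RRM1 alone overlaps between the groups.

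The other genes of deoxynucleotide supply did not pass the test. TK1 encodes the cytosolic thymidine kinase of S phase and was the most variable of the 32 genes. TK1 had 720, 1364 and 824 normalized counts in DMSO and 813, 1013 and 1684 in Tan I, and the single library with the highest value in each group set most of its spread. Its log2 fold change was 0.26 (95% interval -0.50 to 1.02), and it was -0.04 without Tan I replicate 3. DUT, the dUTPase that keeps uracil out of DNA, had a log2 fold change of 0.17 (95% interval -0.44 to 0.78). TYMS, the thymidylate synthase that methylates dUMP, had 1037 ± 136 under DMSO and 1032 ± 119 under Tan I (SD, n = 3), with a log2 fold change of -0.00 (95% interval -0.34 to 0.33). ENOSF1 overlaps TYMS on the other strand and had a log2 fold change of -0.08. DTYMK, the thymidylate kinase that acts on the product of both TYMS and TK1, was the steadiest of the 32 genes, at 1759, 1668 and 1759 in DMSO and 1755, 1754 and 1738 in Tan I. Its log2 fold change was 0.02 (95% interval -0.21 to 0.25), and under rescaling to the same total it was -0.04.

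Of the 4 pyrimidine de novo genes, none was called, and the median log2 fold change was -0.14. CAD, the multifunctional protein that catalyses the first steps of the ring, had 3638, 3015 and 3400 normalized counts in DMSO and 3510, 2976 and 2560 in Tan I, with a log2 fold change of -0.16 (95% interval -0.51 to 0.19). DHODH, the mitochondrial dehydrogenase that is the target of brequinar and leflunomide, had a log2 fold change of -0.14 (95% interval -0.45 to 0.18). UMPS, which joins the ring to PRPP and forms UMP, had -0.15 (95% interval -0.47 to 0.17). All 3 estimates kept this sign under both rescalings, and each gene's groups overlapped. CTPS1, the CTP synthase at the end of the pathway, differed from these in sign. CTPS1 had 1029, 1137 and 1049 normalized counts in DMSO and 1150, 1188 and 1220 in Tan I. The groups did not overlap, but DMSO replicate 2 and Tan I replicate 1 were nearly equal, and the log2 fold change was 0.15 (95% interval -0.10 to 0.39, adjusted p = 0.999, limma). The CTPS1 gene spans chr1:40979300-41012565 on the plus strand, with 19 exons.

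No gene of the 6 on the purine de novo path was called, and 2 of them lay above 0. PPAT, the amidotransferase of the committed step, had a log2 fold change of -0.04 (95% interval -0.31 to 0.22). GART, which carries out several ring-building steps, had -0.07 (95% interval -0.34 to 0.20). PFAS, the enzyme that introduces a ring nitrogen, had the lowest estimate of the 32 genes, with 470, 427 and 410 normalized counts in DMSO and 469, 326 and 276 in Tan I. Tan I replicate 1 lay at the top of the DMSO range while the other Tan I libraries lay below all DMSO libraries. The log2 fold change of PFAS was -0.32 (95% interval -0.80 to 0.16), and without Tan I replicate 1 it was -0.54 and passed at the unadjusted threshold (adjusted p = 0.532, limma). In that fit 8.86% of all genes tested were called, against 6.25% of the 32 genes. ADSL, which releases fumarate in this pathway and in AMP synthesis, had -0.10 (95% interval -0.57 to 0.37) on the fewest counts of the 32 genes, between 91 and 175 reads in a library. PAICS had 0.09 (95% interval -0.30 to 0.48) and ATIC, which adds the last carbon with 10-formyltetrahydrofolate and closes the ring, had 0.17 (95% interval -0.29 to 0.63).

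PPAT and PAICS are transcribed away from each other on chromosome 4, where GENCODE places their outermost starts 126 bases apart. The 136 bases between the facing RefSeq start sites, chr4:56435616-56435751, are shown on the strand of PAICS because the pair shares this stretch but differed in their order over the libraries. No motif searched is found in it.
PPAT and PAICS: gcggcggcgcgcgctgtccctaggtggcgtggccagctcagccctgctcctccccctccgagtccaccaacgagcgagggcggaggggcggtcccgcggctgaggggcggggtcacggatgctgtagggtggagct
PPAT had 2288, 2048 and 2125 normalized counts in DMSO and 2239, 2101 and 1928 in Tan I. PAICS had 9590, 12923 and 10104 in DMSO and 10225, 11030 and 13349 in Tan I. In both groups the library with the highest PAICS value was the library with the lowest PPAT value, namely DMSO replicate 2 and Tan I replicate 3. The ratio of PAICS to PPAT, chosen after the values were seen, thus ran from 4.19 to 6.31 within DMSO and from 4.57 to 6.92 within Tan I (exact two-sided permutation p = 0.6).

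IMP is converted to AMP by ADSS and ADSL and to GMP by the IMPDH enzymes and GMPS. None of these conversion genes was called, and the median log2 fold change over ADSS, IMPDH1, IMPDH2 and GMPS was 0.05, which became -0.01 under rescaling to the same total. GMPS, the GMP synthetase, had 2475, 2866 and 2518 normalized counts in DMSO and 2758, 2814 and 3143 in Tan I, with overlapping groups (log2 fold change 0.15, 95% interval -0.12 to 0.42). IMPDH2, the inducible isozyme of the rate-limiting step to GMP and a target of mycophenolic acid, had 12671, 17548 and 14325 in DMSO and 11686, 14440 and 19242 in Tan I. Its spread within each group was far larger than the difference between the means (log2 fold change 0.01, 95% interval -0.49 to 0.51). The ratio of IMPDH1 to IMPDH2 ran from 0.133 to 0.161 in DMSO and from 0.133 to 0.164 in Tan I (exact two-sided permutation p = 0.7, adjusted p = 0.7). ADSS had 771 ± 43.0 in DMSO and 792 ± 44.3 under Tan I (SD, n = 3).

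Among PRPP supply and purine salvage, no gene passed the test. HPRT1, which salvages hypoxanthine and guanine and activates mercaptopurine, had 1630, 2294 and 1785 normalized counts in DMSO and 1759, 2133 and 2786 in Tan I. The groups overlapped, and the log2 fold change was 0.22 (95% interval -0.26 to 0.69), or 0.04 without Tan I replicate 3. APRT, which salvages adenine, had 0.16 (95% interval -0.35 to 0.67), and -0.02 without that library. The PRPP synthetases PRPS1 (0.01) and PRPS2 (-0.04) lay near 0, and the ratio of PRPS1 to PRPS2 ran from 3.35 to 4.0 in DMSO and from 3.65 to 3.94 in Tan I (exact two-sided permutation p = 0.5, adjusted p = 0.625).

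The 7 folate, serine and methionine genes had a median log2 fold change of 0.02, and none was called. SHMT2, the mitochondrial serine hydroxymethyltransferase that draws one-carbon units from serine, had 13127 ± 2194 under DMSO and 14078 ± 3052 under Tan I (SD, n = 3), with a log2 fold change of 0.09 (95% interval -0.37 to 0.56). The ratio of its cytosolic isozyme SHMT1 to SHMT2 was 0.11, 0.108 and 0.103 in DMSO and 0.114, 0.0972 and 0.0956 in Tan I, which overlapped (exact two-sided permutation p = 0.4, adjusted p = 0.625). MTHFD2, the mitochondrial folate dehydrogenase that is high in many tumors, had 7723, 9086 and 8710 normalized counts in DMSO and 8080, 8619 and 10673 in Tan I. Its log2 fold change was 0.09 (95% interval -0.25 to 0.43), and the ratio of MTHFD2 to cytosolic MTHFD1 ran from 2.75 to 3.24 in DMSO and from 2.78 to 3.76 in Tan I (exact two-sided permutation p = 0.5, adjusted p = 0.625). MTHFD1, which interconverts folate forms in the cytosol, had a log2 fold change of -0.02 (95% interval -0.27 to 0.23), and MTHFD1L, the mitochondrial formate producer, had 0.02 (95% interval -0.35 to 0.38). SHMT1 also had 0.02. PSPH, the last enzyme of serine synthesis, had 0.19 (95% interval -0.40 to 0.77). MTR, the cobalamin-dependent methionine synthase, had 2822, 1763 and 2534 in DMSO and 2762, 2046 and 1484 in Tan I. DMSO replicate 2 and Tan I replicate 3 were its lowest libraries, the reverse of most genes here, and the log2 fold change was -0.20 (95% interval -0.81 to 0.41).

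For 29 of the 32 genes (90.6%) the log2 fold change was smaller than the log2 range within DMSO, as was so for 86.7% of all genes tested. For 20 of the 32 genes (62.5%), DMSO replicate 2 was the highest DMSO library and Tan I replicate 3 the highest Tan I library, as was so for 35.0% of all genes tested. For PPAT, CAD, DTYMK and MTR (12.5%), these libraries were the lowest of their groups, as was so for 32.1% of all genes. In salvage and PRPP supply, the mean log2 deviation from the average over libraries was 0.24 in DMSO replicate 2 and 0.32 in Tan I replicate 3, against -0.26 in DMSO replicate 1 and -0.22 in Tan I replicate 1. In deoxynucleotide supply the same libraries stood at 0.18, 0.32, -0.23 and -0.12. The purine de novo genes had mean deviations between -0.08 and 0.06, in which members running in opposite directions offset each other. PAICS and ATIC were highest in DMSO replicate 2 and Tan I replicate 3, PPAT was lowest in both, and GART, PFAS and ADSL followed neither order. In Tan I, replicate 3 was the highest library of ATIC (log2 range 0.63) and the lowest of PFAS (0.76). The canonical transcripts of the 20 genes had a median length of 2313 bases, those of the 4 genes 5484 bases, and those of the remaining genes 4514 bases. Their lengths ran in that order from 931 to 8631, from 1051 to 10547 and from 2555 to 6652 bases, so the ranges overlapped widely. The part of transcript length or of depth in these orders was not tested.

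**Figure D3:**
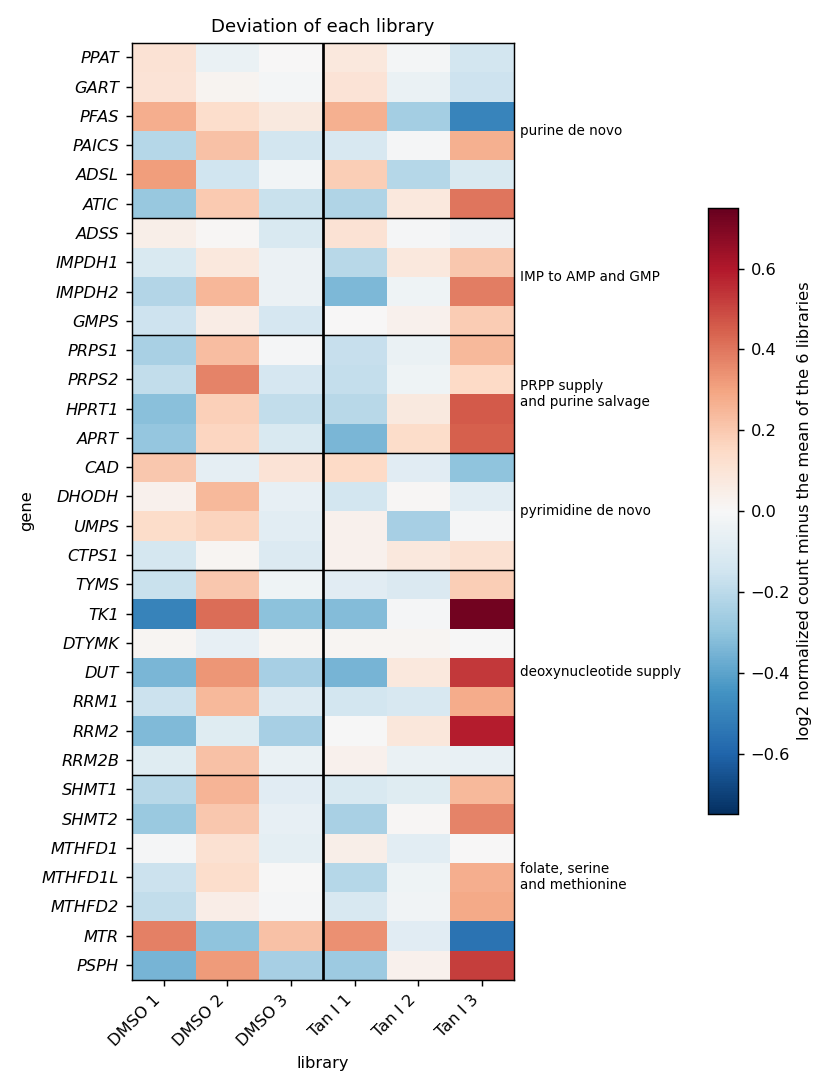
Log2 normalized count of each gene (rows, grouped by branch) in each library (columns, DMSO left of the line and Tan I right of it) minus its mean over the 6 libraries, with red above and blue below the mean. DMSO replicate 2 and Tan I replicate 3 are red for most genes of salvage, deoxynucleotide supply and folate metabolism, and MTR runs the other way.

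The levels of the 32 genes in DMSO, as normalized counts per kb of canonical transcript, spanned 286-fold. IMPDH2 was the highest at 8993 ± 1502 per kb, followed by SHMT2 (6086 ± 1017) and APRT (4005 ± 642), and the DMSO ranges of these genes did not overlap with each other. DUT (2069 ± 555) and MTHFD2 (1932 ± 160) came next, and their ranges overlapped. Neighbors in the order of levels had overlapping DMSO ranges in 23 of 31 pairs, so most of the middle of the order was not resolved. ADSL (31.4 ± 5.36 per kb), PFAS (81.1 ± 5.75), RRM2B (95.3 ± 11.6), DHODH (102 ± 11.3) and UMPS (111 ± 10.1) were the lowest. Along the purine de novo path, ATIC, PAICS and GART stood at 1763, 1707 and 1690 per kb, well above PPAT (585), PFAS and ADSL. ADSL overlaps SGSM3 on the same strand in GENCODE, while PFAS overlaps CTC1 and GART overlaps SON on the other strand. How reads on overlapping genes were assigned is not given in the sources used here. The levels rest on the canonical length of each gene, and which transcripts the cells used was not tested. Between isozymes, the levels per kb in DMSO were 8993 for IMPDH2 and 834 for IMPDH1, 6086 for SHMT2 and 556 for SHMT1, and 1200 for RRM2 and 95.3 for RRM2B. In Tan I RRM2 stood at 1664 ± 388 per kb and RRM1 at 1349 ± 231, while in DMSO they stood at 1200 ± 104 and 1334 ± 210.

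**Figure D4:**
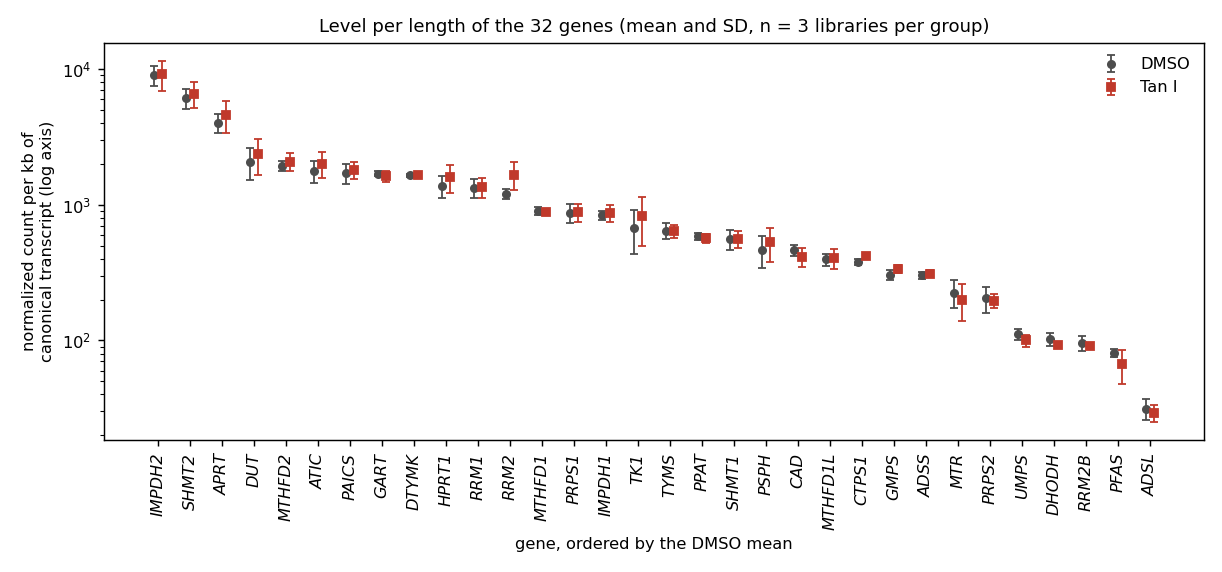
Level of the 32 genes (x axis, in the order of the DMSO mean) as normalized counts per kb of canonical transcript (y axis, log scale), with circles for DMSO and squares for Tan I and whiskers for the SD over 3 libraries. The order runs from IMPDH2 at 8993 to ADSL at 31.4 per kb in DMSO, and the whiskers of the treatments overlap for every gene but CTPS1.

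The rest of these pathways was read from lists of further genes, beside the 2.42% of all genes tested that were called at the unadjusted threshold. Of 50 further purine and pyrimidine genes listed (kinases, nucleotidases, deaminases and transporters among them), 45 were in the table and 44 were tested, and UPP1, the uridine phosphorylase, was the only one called. UPP1 had 14, 21.2 and 18 normalized counts in DMSO and 39.1, 21.1 and 42.7 in Tan I. Tan I replicate 2 lay at the level of DMSO replicate 2, so the groups overlapped on few counts, and the log2 fold change was 0.87 (adjusted p = 0.999, limma). UPP1 was not called without DMSO replicate 1, DMSO replicate 3, Tan I replicate 1 or Tan I replicate 3, under rescaling to the same total, or with the replicate number as a block. The median of this list was 0.07. Of 38 further folate, serine and methionine genes, 32 were in the table, 29 were tested and none was called, with a median of 0.02. Among 34 S phase genes, which share their timing with RRM2, TK1 and TYMS, 25 lay above 0 (73.5%, against 49.7% of all genes tested). Their median was 0.06, and it was -0.04 without Tan I replicate 3. PRIM1, the DNA primase subunit, was the single gene of them called, and it was lower in Tan I (740, 763 and 700 against 660, 517 and 599, log2 fold change -0.32, adjusted p = 0.999, limma). CCNE1, cyclin E1, had the highest estimate of this list at 0.29. Of 25 tested targets of ATF4, the stress factor that drives serine and one-carbon genes, VLDLR was called lower (-0.27, adjusted p = 0.999, limma). The median of the ATF4 list was 0.04. Its extremes were DDIT3 (0.30) and ASNS (-0.47), and neither passed the test.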

How the data were processed

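NB4 RNA-seq reads were aligned by the authors to GRCh38 with STAR, multi-mapping reads were removed, and genes were counted with featureCounts and compared with DESeq2, with versions not given in the sources used here. The deposited values are normalized counts, a signal scaled by the authors with 1 size factor per library. The deposited fold changes, standard errors, statistics and p-values were not used. Whole reads were recovered for 100.0% of values (tolerance 0.001 reads), and columns named con were taken as DMSO.

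Log2(normalized count + 1) of genes with a mean of at least 10 was tested with limma 3.58.1 (trend, R 4.3.3), with Benjamini-Hochberg adjustment over all genes tested. Alternatives were edgeR 4.0.16 and DESeq2 1.42.0 on recovered reads, other pseudocounts, filters and scalings, a replicate block, the first principal component as a covariate, and each library left out. The limma and edgeR tests were checked on simulated reads with planted changes larger than those of the members. Genes were drawn independently there, without a component shared over libraries, so the check does not cover the spread or the small changes seen here. Isozyme ratios were tested by exact two-sided permutation, without CTPS1 to CTPS2. The gene members and lists were chosen with earlier results of these data known. Every member is named, with values per library for those called or not overlapping. Isozyme pairs are given as ratios per library or as their range, with counts per library for only some of their genes. Further members were given per library after their values were seen. Of the other lists, called pathway genes and the extremes of the S phase and ATF4 lists are named, and VLDLR was added after its value was seen. Positions and lengths are from GENCODE 44. PSPH, ADSL, IMPDH2, RRM2B and SHMT2 had no promoter window.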

Additional observations from a re-analysis of the deposited data

How the results depend on the processing

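Over the alternative settings, 537 of 544 values of single members kept their side of the threshold and moved by less than the spread between replicates. The filters, eBayes without trend and the replicate block leave the log2 fold change itself unchanged, so this share was partly fixed in advance. The genes called at the unadjusted threshold (408) numbered 1496 with first component scores as a covariate and 160 to 1496 with 1 library left out. At adjusted p, 0 genes became 16 with DESeq2 and 194 with the covariate, and among members 0 became 1, RRM2, with the covariate. The count of members called (1) was 0 with eBayes without trend, where the RRM2 call was lost and 3.29% of all genes were called. With 1 library left out it was 0 to 2, while 0.947% to 8.86% of all genes were called. The 2 (6.25% of members) came without Tan I replicate 1, where 8.86% of all genes were called. Genes called in the wider pathways (1) numbered 2 without a filter, 0 with a mean of at least 50 and 2 with the same total. They numbered 2 with DESeq2, 0 with the replicate block and 4 with the covariate. In these fits the shares of all genes called were, in that order, 2.39%, 2.55%, 2.59%, 2.49%, 2.06% and 8.86%. With 1 library left out the pathway genes called numbered 0 to 6, and the 6 came without Tan I replicate 1, where 8.86% of all genes were called. Members whose groups did not overlap (2) numbered 2 to 6 with 1 library left out, with 5 without DMSO replicate 2 (15.6%, against 21.9% of all genes), 4 without DMSO replicate 3 (12.5%, against 12.3%) and 6 without Tan I replicate 1 (18.8%, against 26.5%). The pyrimidine median of -0.14 was -0.20 with the same total and ran from -0.18 to -0.08 with 1 library left out. Uncalled members changed sign in 7 cases under quantile normalization and 15 without Tan I replicate 3. Libraries with the same number deviated together for replicate 1 (correlation 0.75) but not for replicates 2 (-0.09) and 3 (-0.45), so the numbers were not taken as pairs, and with the replicate block RRM2 kept its call and UPP1 was not called. The causes were not tested, except that leaving out a library leaves fewer samples.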
